A study of Mus musculus with 9 samples.

Results

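Irg1 and 8 enzyme genes of the tricarboxylic acid (TCA) cycle, 9 of the 23420 genes in the deposited expression table, were followed in regulatory T cells (Tregs) from inflamed joints and lymph nodes. The 9 genes were taken by symbol: Irg1, Cs, Aco1, Idh2, Idh3a, Ogdh, Sdha, Fh1 and Mdh2. All 9 symbols were found, Irg1 being the older name of Acod1. Irg1 was picked because its synovial level was known to stand out, so its levels are given as a description with no test. The other 8 genes were picked by their enzymatic function, and all 8 passed the filter on low values.

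The TCA cycle is the mitochondrial pathway that oxidizes acetyl groups to carbon dioxide and passes the electrons to the respiratory chain. Irg1 encodes aconitate decarboxylase, which takes cis-aconitate, an intermediate of the aconitase step, out of the cycle and turns it into itaconate. Itaconate inhibits succinate dehydrogenase and is best known as an abundant metabolite of inflammatory macrophages, the cells in which Irg1 has mostly been studied.

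The cells were sorted for YFP from a Foxp3 reporter, Foxp3 being the transcription factor that defines Tregs, after digestion of paws and draining lymph nodes. There were 3 groups of 3 libraries, all with the genotype given as WT: Tregs from the synovium, the joint lining, of mice with collagen-induced arthritis; Tregs from draining lymph nodes of mice with collagen-induced arthritis (arthritic nodes); and Tregs from draining lymph nodes of mice that had no treatment (control nodes). Collagen-induced arthritis is a joint inflammation raised by immunization with collagen. The titles give the synovial and arthritic node libraries the same mouse numbers, and control mice are separate animals. The comparison of synovium with control nodes differs in both tissue and disease. Strain, age and the construction of the reporter are not given in the sources used here.

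Values are normalized read counts: the reads of each gene, scaled by the authors with 1 size factor for each library. The libraries held 11300406 to 12855435 reads in genes, and 3 reads corresponded to a normalized count of 2.61 to 3.52. All 8 genes of a Treg and T cell list, Foxp3 and Cd3e among them, had reads in all 9 libraries. Synovium library 3 stood apart on a list of 8 fibroblast markers, which summed to 142, 79.9 and 2999 in synovium libraries 1, 2 and 3. A list of 20 genes that respond to tissue dissociation and stress summed to 214100 to 256700 in synovium, against 49640 to 70080 in arthritic nodes and 46000 to 56080 in control nodes, and the part of that response in the synovial differences below was not tested. In sorted bulk samples, fewer cells of a type and less RNA per cell cannot be told apart.

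The sequence upstream of 4 of the genes is shown because the genes behaved differently: Irg1 was read in synovium alone, Idh2 and Cs were lower in synovium than in arthritic nodes, and Sdha is the enzyme that itaconate inhibits. RefSeq promoter windows (GRCm38.p6) were matched for 8 of the 9 genes, Idh3a being the gene without one. The stretches below run 5′ to 3′ on each gene's own strand, end before the transcript start, and carry in capitals the letters that matched a motif. In Irg1 (chr14:103046762-103046976, plus strand), Idh2 (chr7:80115393-80115600, minus strand) and Cs (chr10:128337477-128337726, plus strand) the capitals mark a loose form of the kappaB motif, GGG and CC with 5 bases of any kind between them. In Sdha (chr13:74350281-74350490, minus strand) they mark GCGCA and GCGC with 1 base of any kind between them, the motif of nuclear respiratory factor NRF1.
Irg1: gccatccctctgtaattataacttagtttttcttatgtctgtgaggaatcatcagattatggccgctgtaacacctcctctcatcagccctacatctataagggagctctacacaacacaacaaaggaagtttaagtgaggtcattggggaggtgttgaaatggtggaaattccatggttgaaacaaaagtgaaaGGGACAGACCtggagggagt
Idh2: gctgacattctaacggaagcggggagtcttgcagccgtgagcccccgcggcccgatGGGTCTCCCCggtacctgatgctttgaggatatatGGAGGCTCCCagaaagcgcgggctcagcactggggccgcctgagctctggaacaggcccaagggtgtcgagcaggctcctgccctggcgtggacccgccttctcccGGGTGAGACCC
Cs: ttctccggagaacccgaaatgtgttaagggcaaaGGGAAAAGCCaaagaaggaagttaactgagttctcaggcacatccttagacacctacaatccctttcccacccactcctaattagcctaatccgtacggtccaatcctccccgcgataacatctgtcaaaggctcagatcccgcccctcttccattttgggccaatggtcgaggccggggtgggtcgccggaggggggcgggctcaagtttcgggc
Sdha: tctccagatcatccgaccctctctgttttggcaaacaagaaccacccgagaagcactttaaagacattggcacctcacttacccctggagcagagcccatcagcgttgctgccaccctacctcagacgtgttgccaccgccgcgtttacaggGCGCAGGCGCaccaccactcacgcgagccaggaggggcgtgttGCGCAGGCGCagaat
The Irg1 stretch had a GC content of 43.3% and 1 CpG dinucleotide in 215 bases. The other stretches were richer in both, with a GC content of 66.3% and 14 CpG in the 208 bases of Idh2, 55.2% and 13 in the 250 bases of Cs, and 59.5% and 14 in the 210 bases of Sdha. The kappaB pattern, searched on both strands with overlapping matches allowed, was present in 45.8% of all 32851 promoter windows, and it also matched windows of Aco1, Ogdh and Fh1, so it does not set Irg1, Idh2 and Cs apart. The NRF1 pattern was present in 3.74% of windows and, among the genes with a window, matched that of Sdha. The cyclic AMP response element TGACGTCA, present in 1.55% of windows, matched in windows of Ogdh and Mdh2. The other patterns searched were TTCNNNGAA (GAS, 7.02% of windows), GAAA repeated with 2 bases of any kind between (ISRE core, 2.98%), TGANTCA (AP-1, 6.75%), AAGGTCA (ERR, 4.08%) and TGACNNNGC (ARE, 10.2%), and none of these matched a window of the 8 genes. A match describes letters in a window and does not show that a factor binds there.

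Irg1 lies on chromosome 14, 103046977 to 103056573 (GRCm38, plus strand), and its exons overlap no other annotated gene. It had 831, 925 and 535 normalized counts in synovial Tregs, against no read in any of the 6 node libraries. The synovial values rested on 754, 788 and 476 reads, with 95% Poisson intervals of 773 to 892, 862 to 992 and 488 to 585 that cover counting error only. Every synovial library was far above the floor, and library 3 was below the other two beyond counting error. The mean was 764 ± 204 (SD, n = 3) in synovium, at least 282-fold higher than in arthritic nodes and at least 271-fold higher than in control nodes when the nodes are set at 3 reads per library.

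Within a synovial library Irg1 was above 75.0%, 75.7% and 65.2% of the genes with a read in libraries 1, 2 and 3. Per kilobase of exon, Irg1 was at 1.35, 1.48 and 0.761 times the level of Cs, the enzyme that opens the cycle. Irg1 transcript was thus of the same order as that of Cs in the synovial libraries. The length used for Cs, 5779 bases, covers the exons of all its annotated transcripts, while its longest coding transcript has 2926. Whether Irg1 stands above or below Cs therefore depends on the length chosen. Of the 23420 genes, 25 had no read in the 6 node libraries and a synovial mean of 50 or more, and only 1 of them, 9430020K01Rik, had a higher synovial mean (895) than Irg1.

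**Figure D1:**
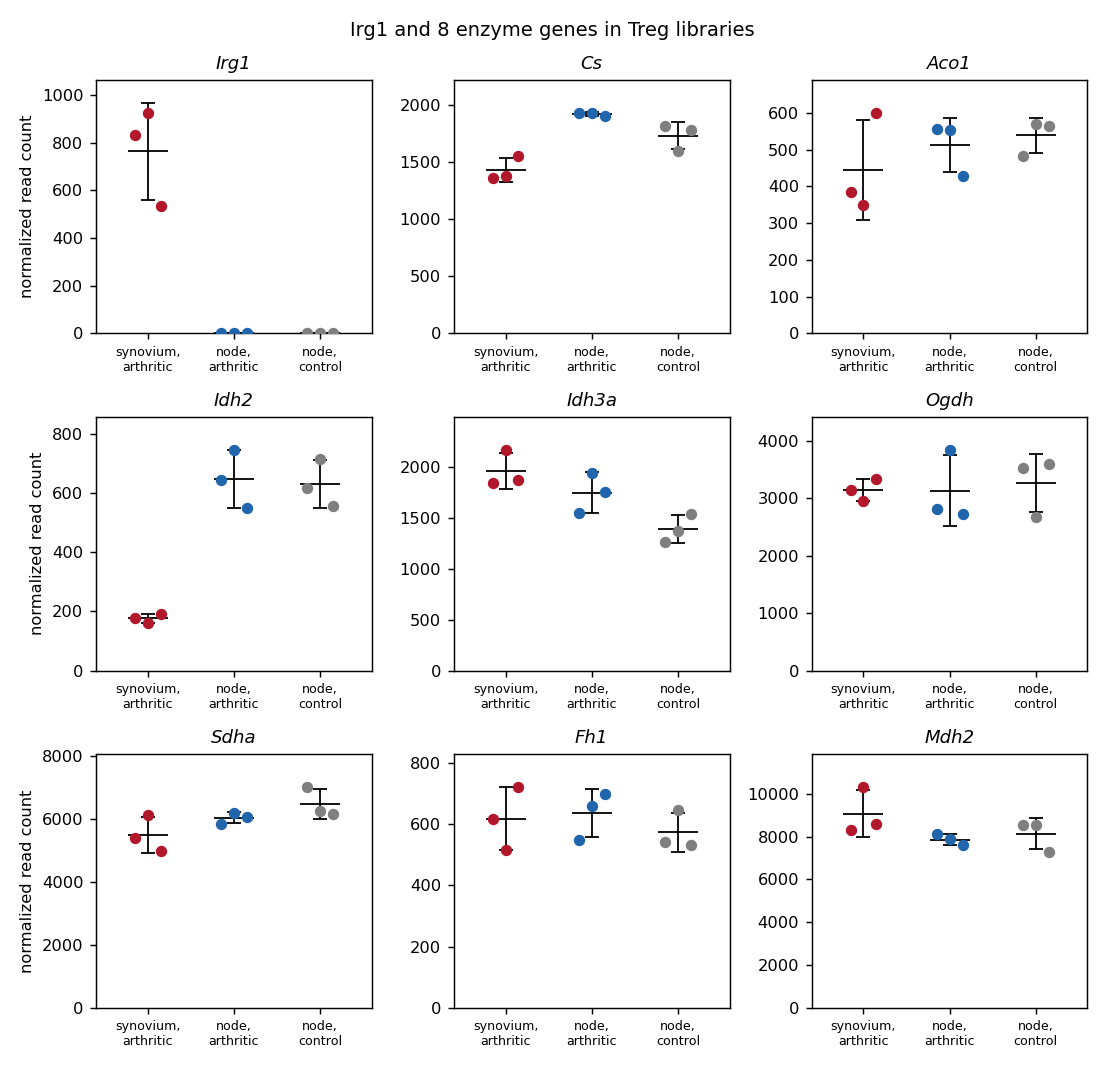
Normalized read count (vertical axes, linear and starting at 0) of Irg1 and the 8 enzyme genes in synovium, arthritic node and control node Tregs; points are libraries, the horizontal line is the mean and bars are the SD (n = 3). Irg1 has reads in synovium alone, Idh2 is at 159.7 to 191 in synovium with all node libraries at 550.3 or above, and the points of the other genes lie much closer together.

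Idh2 changed most among the 8 enzymes. It encodes the mitochondrial isocitrate dehydrogenase that reduces NADP and can run in either direction. Idh2 (chromosome 7, 80094846 to 80115392) had 179, 159.7 and 191 normalized counts in synovium, against 645, 746 and 550.3 in arthritic nodes and 618, 717 and 555 in control nodes. All synovial libraries were below all node libraries, and the node groups overlapped. Such a separation was common: of all genes tested, 48.2% did not overlap between synovium and arthritic nodes and 50% between synovium and control nodes. These shares stand beside each such separation below. Idh2 was 3.63-fold lower in synovium than in arthritic nodes (log2 difference -1.86 ± 0.19 SE, adjusted p = 1.7e-05) and 3.55-fold lower than in control nodes (-1.83 ± 0.19, adjusted p = 1.4e-05).

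Cs, citrate synthase, joins acetyl-CoA to oxaloacetate and so starts the cycle. Cs (chromosome 10, 128337734 to 128362479) had 1355, 1377 and 1548 normalized counts in synovium, against 1926, 1929 and 1903 in arthritic nodes and 1815, 1596 and 1779 in control nodes. The synovial libraries were below both node groups without overlap, though synovium library 3 came close to control node library 2. Cs was 1.35-fold lower in synovium than in arthritic nodes (log2 difference -0.43 ± 0.11 SE, adjusted p = 0.010). Its log2 difference of -0.28 ± 0.11 between synovium and control nodes did not pass (adjusted p = 0.065). That difference passed under 6 of 18 alternative settings, among them the fit without synovium library 3 (-0.34, adjusted p = 0.033). Cs shares 91.92% identity over 1522 bases with Csl, whose highest normalized count in any library was 5.22.

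Idh2 and Cs were the 2 of the 8 enzymes that fell in synovium against arthritic nodes, and none rose. Over all 11357 genes tested, 33.8% were called in this comparison, 17.9% higher and 15.9% lower. The enzymes' share of called genes is near that background, and their median log2 difference was -0.09 against about 0 for all genes. Both calls held under all 18 alternative settings.

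Idh3a encodes the catalytic subunit of the NAD-dependent isocitrate dehydrogenase, which carries the forward flow of the cycle at the same step. Idh3a (chromosome 9, 54586334 to 54604661) had 1845, 2169 and 1878 normalized counts in synovium, against 1545, 1944 and 1758 in arthritic nodes and 1266, 1374 and 1540.2 in control nodes. The arthritic nodes lay between the other groups, overlapping synovium and just clear of the control nodes. Idh3a rose 1.41-fold in synovium against control nodes (log2 difference 0.50 ± 0.13 SE, adjusted p = 0.0099). Quantile scaling, which shifts the median of all genes by -0.12 for synovium against arthritic nodes and by -0.13 against control nodes, ended that call (0.26, adjusted p = 0.13). The log2 difference of synovium from arthritic nodes was 0.17 ± 0.13 (adjusted p = 0.35), with the sign turned under quantile scaling (-0.05).

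Per kilobase of exon, the ratio of Idh2 to Idh3a was 0.178 ± 0.029 in synovium, against 0.728 ± 0.104 in arthritic nodes and 0.895 ± 0.167 in control nodes (SD, n = 3 each). This ratio compares 2 transcripts within a library and does not depend on the scaling between libraries. It was at 0.199 or below in every synovial library and at 0.613 or above in every node library.

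Aco1 is the cytosolic aconitase, which doubles as the iron regulatory protein IRP1 when it lacks its iron-sulfur cluster. Aco1 (chromosome 4, 40143081 to 40198338) had 386, 349.9 and 600.1 normalized counts in synovium, against 556, 553 and 428 in arthritic nodes and 484, 569 and 565 in control nodes. Synovium library 3 was the highest of the 9 libraries, while the other two synovial libraries were the lowest. The log2 difference from arthritic nodes was -0.23 ± 0.22 (adjusted p = 0.45) and that from control nodes was -0.31 ± 0.22 (adjusted p = 0.28). Without synovium library 3 the difference from control nodes was -0.55 and passed (adjusted p = 0.047).

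Ogdh encodes the first component of the 2-oxoglutarate dehydrogenase complex, which makes succinyl-CoA. Ogdh (chromosome 11, 6291633 to 6356642) had 3152, 2961 and 3336 normalized counts in synovium, against 2824, 3844 and 2732 in arthritic nodes and 3534, 2677 and 3594 in control nodes. The groups overlapped throughout, and the log2 difference of synovium from arthritic nodes was 0.02 (95% interval -0.31 to 0.35, adjusted p = 0.92). Its sign varied among the settings.

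Sdha is the flavoprotein subunit of succinate dehydrogenase, the enzyme that itaconate inhibits and that also serves as complex II of the respiratory chain. Sdha (chromosome 13, 74322254 to 74350280) had 5375, 6107 and 4972 normalized counts in synovium, against 5834, 6179 and 6062 in arthritic nodes and 7006, 6259 and 6141 in control nodes. Synovium overlapped the arthritic nodes and lay below the control nodes by a narrow gap. The log2 differences of synovium were -0.14 ± 0.10 from arthritic nodes (adjusted p = 0.32) and -0.24 ± 0.10 from control nodes (adjusted p = 0.080). The difference from control nodes passed under 4 alternative settings, among them the fit without synovium library 2 (-0.32, adjusted p = 0.022). Under quantile scaling both passed (-0.53, adjusted p = 4.4e-04, and -0.65, adjusted p = 7.2e-05).

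Fh1, fumarase, hydrates fumarate to malate. Fh1 (chromosome 1, 175600374 to 175625635) had 617, 517 and 721 normalized counts in synovium, against 548, 658 and 699.7 in arthritic nodes and 541, 647 and 532 in control nodes. The groups overlapped, and the log2 difference of synovium from arthritic nodes was -0.04 (95% interval -0.43 to 0.35, adjusted p = 0.88).

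Mdh2, mitochondrial malate dehydrogenase, closes the cycle by making oxaloacetate. Mdh2 (chromosome 5, 135778480 to 135790398) had 8313, 10309 and 8583 normalized counts in synovium, against 8101, 7870.2 and 7602 in arthritic nodes and 8558, 8520.2 and 7282 in control nodes. Synovium lay above the arthritic nodes without overlap, as did the groups of 48.2% of all genes tested in this comparison. The log2 difference was 0.20 ± 0.11 (adjusted p = 0.17), and under quantile scaling it turned to -0.31 and passed (adjusted p = 0.018), so the direction of Mdh2 rests on the scaling.

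Levels of different genes were compared per kilobase of exon, with the exons of all annotated transcripts of a gene joined. This length can exceed that of the transcript in the cells, so the order of genes at similar levels depends on it. The synovial order was Mdh2 (2546 normalized counts per kilobase), Sdha (1329), Ogdh (577), Idh3a (387), Irg1 (291), Cs (247), Fh1 (182), Aco1 (99.0) and Idh2 (68.2). By spread (mean ± SD, n = 3), Irg1 at 291 ± 77.6 overlapped its neighbours Idh3a at 387 ± 35.2 and Cs at 247 ± 18.3, as did Aco1 at 99.0 ± 30.1 and Idh2 at 68.2 ± 6.10. Within every synovial library, however, Idh3a was above Irg1 (364, 428 and 370 against 317, 353 and 204). Aco1 was likewise above Idh2 in each (85.8, 77.8 and 133.5 against 69.0, 61.7 and 73.8). Irg1 was above Cs in libraries 1 and 2 and below it in library 3. In arthritic nodes the order was Mdh2 (2206), Sdha (1460), Ogdh (574), Idh3a (345), Cs (332), Idh2 (250), Fh1 (187), Aco1 (114) and Irg1 (0), with Idh3a and Cs within their spread. In control nodes Cs (299) stood above Idh3a (275), with overlapping spread but the same order in every control library. Idh2 at 243.5 ± 31.5 was within the spread of Idh3a at 275 ± 27.3, and the remaining genes kept the order of the arthritic nodes. Idh2 was thus the lowest of the 9 in synovium and stood above Fh1 and Aco1 in both node groups.

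For the effect of arthritis within 1 tissue, arthritic nodes were compared with control nodes. In that comparison none of the 8 was called by limma, with 1 of 8, Idh3a, at an unadjusted p under 0.05, and none was called by edgeR or DESeq2. Over all genes, 0.343% were called in this comparison, 0.335% higher and 0.00881% lower. The log2 differences of the 8 ran from -0.10 for Sdha to 0.33 for Idh3a. For Idh3a the value was 0.33 ± 0.13 (95% interval 0.04 to 0.61, adjusted p = 0.49), and for Cs 0.15 ± 0.11 (-0.09 to 0.40, adjusted p = 0.76). Idh3a and Cs did not overlap between the node groups, which held for 14.9% of all genes tested.

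Between synovium and control nodes Idh3a rose and Idh2 fell among the 8, with 40.1% of all genes called, 21.6% higher and 18.5% lower. edgeR and DESeq2 each called 3 of the 8. This comparison shares its synovial libraries with the one against arthritic nodes, so the counts are not independent of each other.

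The wider mitochondrial cycle was read from a list of 17 genes that includes 7 of the 8 enzymes, Aco1 being cytosolic. Against arthritic nodes, synovium had 1 gene higher and 4 lower, and 12 did not pass. The share called, 29.4%, was near the 33.8% of all genes. The median log2 difference of the list was -0.04. The higher gene was Dld, the lipoamide dehydrogenase subunit shared by the 2-oxoglutarate and pyruvate dehydrogenase complexes, and the lower ones were Suclg1, Suclg2, Idh2 and Cs. Summed over the 17 genes, the list stood at 38050 to 42680 normalized counts in synovium, against 40010 to 41900 in arthritic nodes and 40100 to 42520 in control nodes, so the groups overlapped in total.

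Suclg1 and Suclg2 belong to succinyl-CoA ligase, which makes succinate. Suclg1, the alpha subunit, had 1016, 987 and 1043 normalized counts in synovium, against 1915, 2052 and 1799 in arthritic nodes and 2023, 2084 and 1998 in control nodes. Suclg2, the beta subunit of the form that uses GDP, had 286, 243 and 336 in synovium, against 546, 505 and 446 in arthritic nodes and 640.3, 532 and 655 in control nodes. Both genes were lower in every synovial library than in any node library. Of all genes, 48.2% did not overlap against arthritic nodes and 50% against control nodes. Suclg1 fell 1.89-fold against arthritic nodes (log2 difference -0.92 ± 0.11, adjusted p = 4.4e-05) and Suclg2 fell 1.74-fold (-0.80 ± 0.19, adjusted p = 0.0067). Sucla2, the beta subunit of the form that uses ADP, had 2184, 2467 and 2233 in synovium, against 2476, 2268 and 2223 in arthritic nodes and 2177, 2410.4 and 2102 in control nodes, with overlapping groups. Per kilobase, the ratio of Suclg1 to Sucla2 was 0.384 ± 0.033 in synovium, against 0.716 ± 0.059 in arthritic nodes and 0.790 ± 0.039 in control nodes (SD, n = 3 each).

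Dld had 1894, 2374 and 2203 normalized counts in synovium, against 1705, 1453 and 1418 in arthritic nodes and 1735, 1770.3 and 1495 in control nodes. It rose 1.41-fold in synovium against arthritic nodes (log2 difference 0.50 ± 0.13, adjusted p = 0.011), a call that quantile scaling ended (0.27, adjusted p = 0.11). Under that scaling 8 of the 17 cycle genes were called against arthritic nodes, all lower, in place of 5. Against control nodes 2 of the 17 were higher (Idh3a and Dld) and 4 lower (Idh2, Suclg1, Suclg2 and Idh3b). Quantile scaling turned this into none higher and 8 lower, ending the calls of Idh3a and Dld and adding Cs, Sdha, Mdh2 and Idh3g. The calls of Dld (0.37 ± 0.13, adjusted p = 0.040) and Idh3b (-0.38 ± 0.12, adjusted p = 0.029) in that comparison were lost when single libraries were left out, Dld without synovium library 2 or 3 or any control library, with adjusted p from 0.055 to 0.13, and Idh3b without synovium library 1 or 3 or control library 2 or 3, with adjusted p from 0.059 to 0.12. Dld did not pass by edgeR there either (adjusted p = 0.067). No cycle gene was called between arthritic and control nodes by limma, edgeR or DESeq2, with 1 of 17 at an unadjusted p under 0.05.

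**Figure D2:**
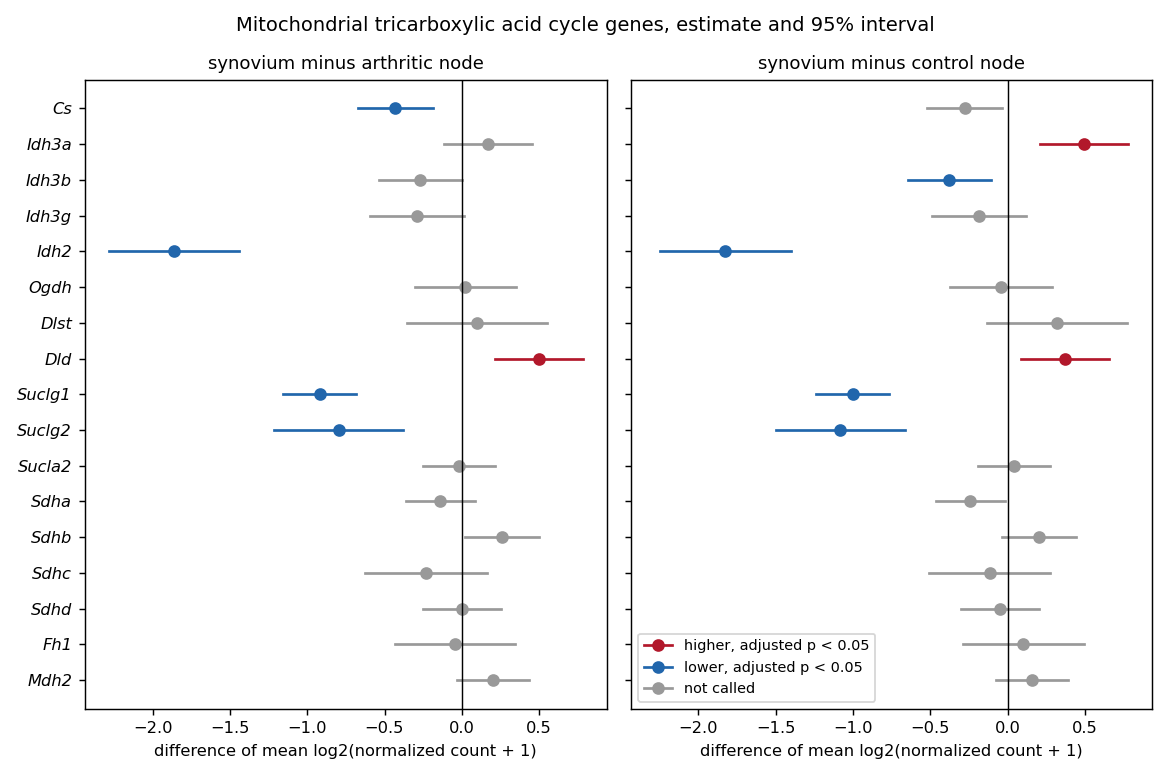
Difference of mean log2(normalized count + 1) for the 17 mitochondrial cycle genes in the order of the cycle, synovium minus arthritic node on the left and synovium minus control node on the right; points are limma estimates, bars 95% intervals, red and blue mark genes called higher and lower. Idh2 lies farthest from 0 in both panels, followed by Suclg1 and Suclg2, while most of the remaining points lie within 0.5 of 0.

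Of 13 listed genes that feed the cycle with pyruvate 11 were tested, and against arthritic nodes 2 were higher in synovium and 3 lower, where 17.9% of all genes were higher and 15.9% lower. Pdp1 is the phosphatase that switches pyruvate dehydrogenase on, and Pdk1 and Pdk2 are kinases that switch it off. Pdp1 had 1437, 1419.6 and 1233 normalized counts in synovium, against 300.0, 292 and 238 in arthritic nodes and 362, 260.0 and 270.2 in control nodes, and was 4.93-fold higher than in arthritic nodes (log2 difference 2.30 ± 0.19, adjusted p = 2.4e-06). Pdk1 had 688, 616 and 494 in synovium, against 1635, 2294 and 1961 in arthritic nodes and 2404, 2196 and 2366 in control nodes, and was 3.27-fold lower than in arthritic nodes (-1.71 ± 0.16, adjusted p = 5.8e-06). Pdp1 and Pdk1 moved in opposite directions with no overlap of synovium and nodes, beside 48.2% (arthritic) and 50% (control) of all genes without overlap. Pdk2 fell as well (-1.37 ± 0.30, adjusted p = 0.0038). A further kinase, Pdk3, had 615, 666 and 828 in synovium, against 472, 495 and 683 in arthritic nodes and 723, 662 and 599.8 in control nodes, and did not pass (0.36 ± 0.19, adjusted p = 0.16). Pdha1, the catalytic subunit of pyruvate dehydrogenase itself, fell 1.47-fold (-0.55 ± 0.12, adjusted p = 0.0030). Mpc1, a subunit of the mitochondrial pyruvate carrier, rose 1.53-fold (0.62 ± 0.17, adjusted p = 0.014), and its call was lost without arthritic node library 2 (adjusted p = 0.051). The list had the same counts against control nodes, 2 higher and 3 lower. There Mpc1 (0.47, adjusted p = 0.042) lost its call by edgeR (adjusted p = 0.059), under TMM and quantile scaling, with the 2 groups alone, and without synovium library 1 or 3 or control library 2 or 3, with adjusted p from 0.058 to 0.11. No gene of it was called between the node groups by limma (0 at an unadjusted p under 0.05), edgeR or DESeq2.

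Genes for the entry of glutamine and malate had 2 of 6 tested higher in synovium than in arthritic nodes and 1 lower, where 17.9% of all genes were called higher and 15.9% lower. Of the higher genes Gls2 passed the filter on low values through synovium alone. Glud1, glutamate dehydrogenase, which yields 2-oxoglutarate, had 2403, 2395 and 2359 normalized counts in synovium, against 1201, 1492 and 1407 in arthritic nodes and 1268, 1420.0 and 1642 in control nodes. It was higher in every synovial library than in any node library, by 1.75-fold against arthritic nodes (log2 difference 0.81 ± 0.13, adjusted p = 4.7e-04). No overlap was found for 48.2% (arthritic) and 50% (control) of all genes. Gls2, the liver-type glutaminase, had 113, 141 and 194 in synovium and no read in any node library, and was at least 55.3-fold higher than in arthritic nodes. Me2, the mitochondrial malic enzyme, was called lower (-0.51 ± 0.17, adjusted p = 0.035) with overlapping groups. That call was lost when synovium library 1 or 3 or any arthritic node library was left out, with adjusted p from 0.063 to 0.13.

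The malate-aspartate shuttle, which carries reducing equivalents from the cytosol into mitochondria, has paired cytosolic and mitochondrial enzymes. Got1, the cytosolic aspartate aminotransferase, had 16929, 18937 and 16581 normalized counts in synovium, against 669.6, 827 and 641 in arthritic nodes and 744, 504 and 428 in control nodes. Synovial Tregs had 24.6-fold more of it than arthritic node Tregs (log2 difference 4.62 ± 0.18, adjusted p = 7.3e-09). Got2, its mitochondrial partner, had 767, 558 and 998 in synovium, against 776, 902 and 847 in arthritic nodes and 775, 884 and 962 in control nodes, and did not pass (-0.16 ± 0.20, adjusted p = 0.58). Mdh1, the cytosolic malate dehydrogenase, had 11014, 10122 and 11437 in synovium, against 6262, 5975 and 5841 in arthritic nodes and 5841, 6008 and 5275 in control nodes, and rose 1.80-fold against arthritic nodes (0.85 ± 0.09, adjusted p = 2.5e-05). Per kilobase, the ratio of Got1 to Got2 was 46.0 ± 16.8 in synovium, against 1.61 ± 0.16 in arthritic nodes and 1.25 ± 0.51 in control nodes, and that of Mdh1 to Mdh2 was 1.68 ± 0.28 in synovium, against 1.06 ± 0.01 in arthritic nodes and 0.977 ± 0.029 in control nodes (SD, n = 3 each). Me1, the cytosolic malic enzyme, was too low to be tested, with 20.9, 29.4 and 21.4 in synovium and no read in the nodes. In all, 2 of 5 tested cytosolic counterparts were higher in synovium than in arthritic nodes and none lower, a share of 40.0% beside 33.8% of all genes called.

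Of 5 carriers of cycle intermediates tested, 2 were lower in synovium than in arthritic nodes and none higher. The share called, 40%, stood beside 33.8% of all genes, 17.9% higher and 15.9% lower. Slc25a11, the 2-oxoglutarate carrier, had 909, 802 and 1006 normalized counts in synovium, against 1340.1, 1384 and 1617 in arthritic nodes and 1519.6, 1311 and 1579 in control nodes (log2 difference from arthritic nodes -0.68 ± 0.14, adjusted p = 0.0026). Slc25a12, an aspartate-glutamate carrier, had 660.0, 559 and 398 in synovium, against 965, 993 and 884 in arthritic nodes and 953, 723 and 873 in control nodes (-0.84 ± 0.19, adjusted p = 0.0050). Both were lower in every synovial library than in any node library, beside 48.2% (arthritic) and 50% (control) of all genes without overlap. Slc25a13, another aspartate-glutamate carrier, had 122, 171 and 148 in synovium, against 110.4, 119 and 24.5 in arthritic nodes and 99.4, 69.5 and 63.0 in control nodes, and did not pass (1.07 ± 0.55, adjusted p = 0.16). The differences of the carriers thus had both signs, and the median log2 difference of the 5 was 0.26.

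**Figure D3:**
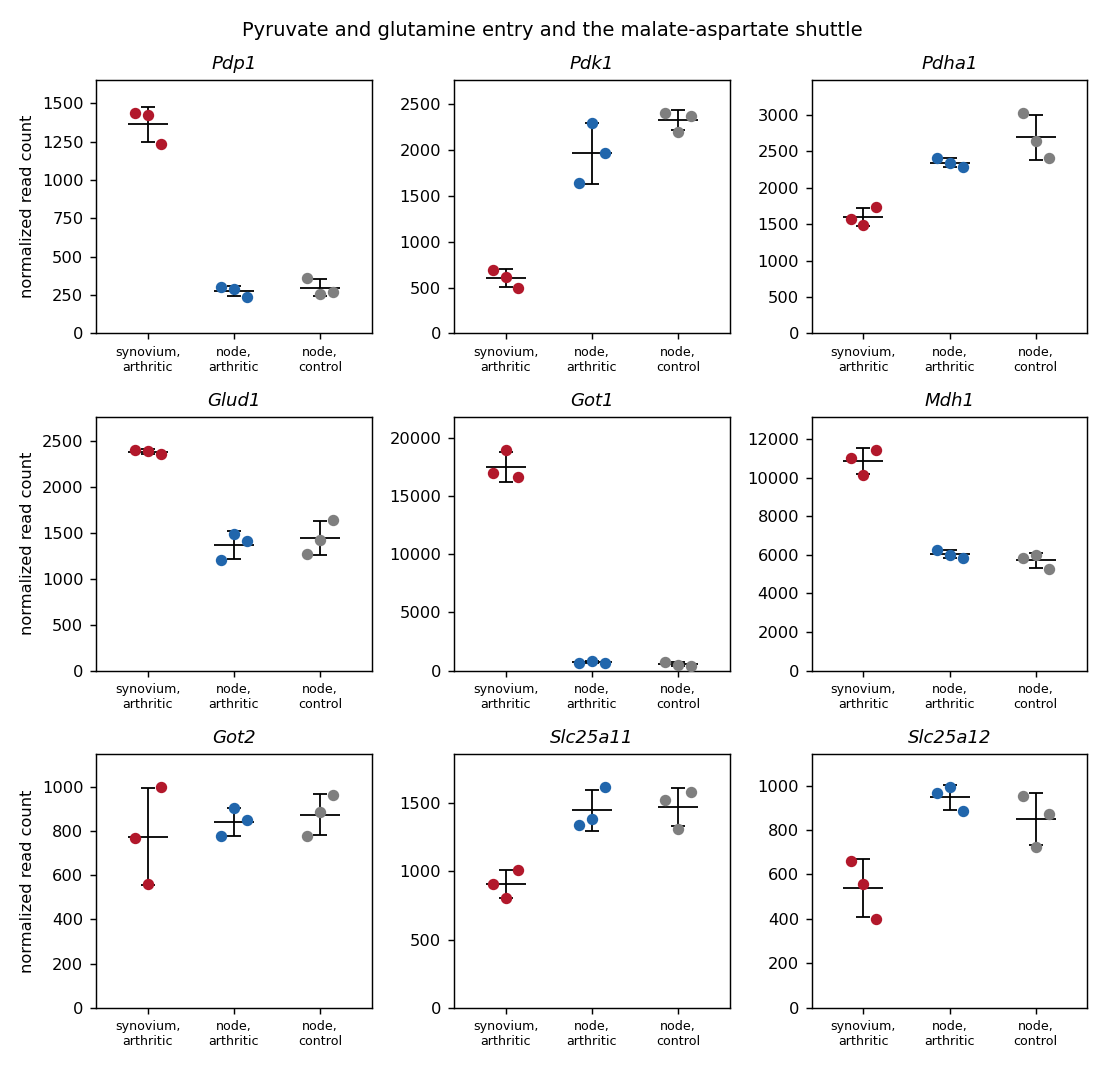
Normalized read count (vertical axes, linear and starting at 0) of 9 genes of pyruvate entry, glutamine entry and the malate-aspartate shuttle in synovium, arthritic node and control node Tregs; points are libraries, the line is the mean and bars are the SD (n = 3). Pdp1, Glud1, Got1 and Mdh1 lie above the nodes in every synovial library, Pdk1, Pdha1, Slc25a11 and Slc25a12 lie below, and Got2 overlaps.

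Itaconate is broken down through succinyl-CoA ligase and the lyase Clybl. Of the 4 genes listed for this, the 2 already described, Suclg1 and Suclg2, fell against arthritic nodes. Both are also counted in the cycle list. The share called, 50%, stood beside 33.8% of all genes, 15.9% being lower. Clybl had 173, 195 and 191 normalized counts in synovium, against 190.4, 228 and 233 in arthritic nodes and 228, 199.5 and 126 in control nodes, with overlapping groups and no call. Among 4 assembly factors of succinate dehydrogenase, 1110058L19Rik, the older name of Sdhaf4, had 292, 264 and 299 in synovium, against 606, 464 and 549 in arthritic nodes and 407, 556 and 460.1 in control nodes, and fell (log2 difference from arthritic nodes -0.91 ± 0.19, adjusted p = 0.0032). Sdhaf1 was called higher against arthritic nodes but shares 69.6% of its exon bases with a gene on the opposite strand, and since the strand setting of the counting is not given, its value is uncertain. Its call was lost without arthritic node library 2 (adjusted p = 0.059). The share of the 4 assembly factors called was 50%, beside 33.8% of all genes.

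Itaconate is known in macrophages to modify Keap1, the protein that holds down the transcription factor Nrf2 (gene Nfe2l2). Of 12 tested genes of Nrf2 and its targets, 3 were higher in synovium than in arthritic nodes and 1, Keap1, lower. This share, 33.3%, is near that of all genes called, 33.8%. Srxn1, sulfiredoxin, had 292, 422 and 547 normalized counts in synovium, against 19.1, 34.6 and 47.2 in arthritic nodes and 0, 0 and 0.913 in control nodes. Against arthritic nodes it rose 12.5-fold in synovium (log2 difference 3.65 ± 0.64, adjusted p = 8.9e-04). Mafg, a small Maf partner of Nrf2, had 269, 287 and 315 in synovium, against 55.7, 72.2 and 75.1 in arthritic nodes and 22.1, 34.3 and 23.7 in control nodes (2.09 ± 0.38, adjusted p = 0.0011, against arthritic nodes). Txnrd1, thioredoxin reductase, rose 2.25-fold (1.17 ± 0.24, adjusted p = 0.0026). The 3 groups did not overlap for Srxn1 or Mafg and ran in the same order, synovium above arthritic nodes above control nodes. Of all genes, 48.2% did not overlap between synovium and arthritic nodes, 14.9% between the node groups and 50% between synovium and control nodes. The share separated in all 3 comparisons was not counted. Between the node groups Mafg was called by DESeq2 (adjusted p = 0.028) and not by limma or edgeR. Keap1 fell 2.04-fold (-1.03 ± 0.29, adjusted p = 0.017), and its call was lost without synovium library 2 (adjusted p = 0.058) and also without arthritic node library 2 (adjusted p = 0.056). Nfe2l2 itself had 877, 871 and 482 in synovium, against 1100.1, 1245 and 928 in arthritic nodes and 834, 935 and 553 in control nodes, and was not called.

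Srxn1 was also the 1 gene of the lists that limma called between arthritic and control nodes, where 0.335% of all genes were called higher. edgeR called 37 of all genes there, among them 2 of the lists, Srxn1 and Fosb. DESeq2 called 173 of all genes, among them 7 of the lists. These were Srxn1, Mafg, Fosb, Dnajb1 and Cxcl3 higher and Il2ra and Sdhaf1 lower. Fosb and Cxcl3 passed the filter on low values through synovium alone. With 1 read of Srxn1 in the control libraries, its ratio of means was 110.6, with a counting interval of 18.9 to 4282 (limma adjusted p = 0.012). The limma call of Srxn1 was lost without arthritic node library 2 (adjusted p = 0.12) and also without library 3 (adjusted p = 0.064). It was also lost when only the node libraries were fitted (adjusted p = 0.11).

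Iron handling was read because Aco1 is also IRP1, which binds the transcripts of Tfrc and Fth1. Of 7 tested genes, 3 were higher in synovium than in arthritic nodes and 1 lower, beside 17.9% and 15.9% of all genes. Fth1, ferritin heavy chain, had 52367, 46924 and 61398 normalized counts in synovium, against 13463, 11904 and 12238 in arthritic nodes and 11396, 12436 and 10759 in control nodes, a 4.25-fold rise against arthritic nodes (log2 difference 2.09 ± 0.11, adjusted p = 6.6e-08). Tfrc, the transferrin receptor, had 1203, 931 and 1974 in synovium, against 697, 568 and 628 in arthritic nodes and 489, 706 and 721 in control nodes (1.05 ± 0.25, adjusted p = 0.0063). Fth1, for iron storage, and Tfrc, for iron uptake, were thus both higher in every synovial library than in any node library. Of all genes, 48.2% (arthritic) and 50% (control) did not overlap, and other iron genes did not share the rise. Slc11a2, a transporter of ferrous iron, fell (-0.82 ± 0.22, adjusted p = 0.012). Ftl1, ferritin light chain, was called higher (0.40 ± 0.12, adjusted p = 0.020) but turned to -0.12 under quantile scaling and lost its call without synovium library 1 or 2 or arthritic node library 2 or 3, with adjusted p from 0.050 to 0.080.

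Of 11 tested regulators of mitochondrial biogenesis, 2 were higher and 2 lower in synovium than in arthritic nodes, a share of 36.4% beside 33.8% of all genes. Gabpb1, a subunit of the factor GABP that acts on many genes of mitochondrial proteins, had 7780.3, 7078 and 5922 normalized counts in synovium, against 1571, 1773 and 1477 in arthritic nodes and 1365, 1475 and 1499 in control nodes (log2 difference 2.10 ± 0.12, adjusted p = 1.4e-07). Ppargc1b, a coactivator of mitochondrial genes, had 11.02, 21.1 and 22.5 in synovium, against 120.0, 83.7 and 109 in arthritic nodes and 191, 108 and 138 in control nodes (-2.50 ± 0.45, adjusted p = 0.0011). Gabpb1 was higher and Ppargc1b lower in every synovial library than in any node library. Among all genes, 48.2% did not overlap against arthritic nodes and 50% against control nodes. Polg2, the accessory subunit of the mitochondrial DNA polymerase, was the other gene that rose (1.83 ± 0.21, adjusted p = 3.0e-05). Tfb1m fell (-1.29 ± 0.46, adjusted p = 0.047), a call lost in 5 of the settings that kept all libraries of the comparison, edgeR among them (adjusted p = 0.056), and also whenever 1 library of either group was left out (adjusted p from 0.051 to 0.16).

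In activated macrophages Irg1 is induced together with cytokines and chemokines. From a list of 20 such genes, 9 passed the filter on low values, and 3 of these, Cxcl1, Cxcl3 and Ccl3, would not have passed on the node libraries alone. The filter thus favours genes that are high in synovium, and no share is read from this list. By limma 7 genes were called higher in synovium than in arthritic nodes, these 3 among them, and edgeR and DESeq2 called 5 each. Of all genes 17.9% were called higher, a share with which this count cannot be compared because of the filter. Cxcl2, a chemokine that attracts neutrophils, had 959.7, 701 and 2648 normalized counts in synovium, against 5.22, 15.4 and 41.1 in arthritic nodes and 0, 4.51 and 0 in control nodes (log2 difference from arthritic nodes 6.22 ± 0.89, adjusted p = 2.0e-04). Ccl5 had 2447, 2468 and 1592 in synovium, against 171, 164 and 741 in arthritic nodes and 158, 123 and 246 in control nodes (2.95 ± 0.48, adjusted p = 5.4e-04). Cxcl3, Cxcl10 and Marcksl1 rose as well, and Cxcl1 and Ccl3 passed by limma but not by edgeR (adjusted p = 0.30 and 0.12) or DESeq2 (adjusted p = 0.53 and 0.068). Both also lost the limma call when single libraries were left out, Cxcl1 without any synovial library or arthritic node library 1 or 2 (adjusted p from 0.073 to 0.15), and Ccl3 without synovium library 1 or 3 or arthritic node library 1 or 3 (adjusted p from 0.089 to 0.11). Other genes of the same macrophage response had few reads or none in synovium. Nos2, Il12b, Saa3 and Lcn2 were at 0 in all 9 libraries, Il6 and Il1a had no synovial read, and Il1b had 8.82, 0 and 0 in synovium. Ccl2, Ptgs2, Slfn4 and Clec4e had reads in some libraries but did not pass the filter. Ccl4 had 484, 58.7 and 160 per kilobase in synovium, against 0, 335 and 17.2 in arthritic nodes and 42.6, 56.1 and 24.9 in control nodes, and was not called against arthritic nodes. Tnf had 359, 197 and 308 in synovium, against 489, 381 and 319 in arthritic nodes and 413, 511 and 383 in control nodes.

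Because Irg1 is known from myeloid cells, markers of cells other than Tregs were read beside it. A list of 16 macrophage and monocyte markers summed to 79.8 to 314 normalized counts in synovium, against 64.5 to 585 in arthritic nodes and 106 to 372 in control nodes. In synovium 8 of the 16 were at 0, among them Emr1 (the gene of F4/80), Mrc1, Fcgr1 and Marco, and Csf1r, the receptor for macrophage colony-stimulating factor, had 1.10, 0 and 0. Arthritic node libraries 1 and 3, at 547 and 585, had a higher sum of this list than any synovial library and no Irg1 read. Of the 16 markers 4 passed the filter on low values, and 1 of these, Cd14, passed through synovium alone. That filter favours genes high in synovium, so no share is read from this list. Cd14 was the marker called higher in synovium than in arthritic nodes by limma. It had 70.5, 196 and 66.3 in synovium, against 0, 0 and 14.9 in arthritic nodes and 0 in control nodes. By DESeq2 it did not pass against arthritic nodes (adjusted p = 0.17).

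A list of 13 neutrophil markers summed to 461.5 to 707 in synovium, against 44.4 to 259 in arthritic nodes and 1.00 to 65.7 in control nodes. Most of the synovial sum was Mmp9, with 553, 368 and 582, against 43.5, 231 and 108 in arthritic nodes and 0, 23.5 and 65.7 in control nodes. Csf3r, the receptor for granulocyte colony-stimulating factor, and Retnlg, Lcn2 and Elane were at 0 in all synovial libraries, and S100a8 had 4.41, 34.1 and 1.12 there. Synovium library 2 had the most S100a8 and the most Irg1, and the lowest sum of the neutrophil list.

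A list of 9 dendritic cell markers summed to 1237 to 1391 in synovium, against 176 to 257 in arthritic nodes and 100.4 to 214 in control nodes. The sum was carried by Zbtb46, with 537, 538 and 607 in synovium, by Xcr1, with 307, 540.1 and 471, and by H2-Ab1, with 349, 282 and 139. Zbtb46 and Xcr1 were called higher than in arthritic nodes by limma and edgeR, while DESeq2 called Xcr1 and gave no p for Zbtb46. H2-Ab1 did not pass by limma (adjusted p = 0.50). In the authors' deposited table, made with DESeq2 on the arthritic mice alone, H2-Ab1 had a log2 fold change of 1.25 (adjusted p = 0.012). Zbtb46 had 4.63 there (adjusted p = 0.024). Itgax, the gene of CD11c, was at 0 in all synovial libraries. A list of 8 mast cell and basophil markers summed to 407 to 835 in synovium, against 37.5 to 128 in arthritic nodes and 77.3 to 109 in control nodes, nearly all of it Kit, and 6 of the 8 were at 0 in synovium. Fibroblast markers were highest in synovium library 3, the library with the least Irg1. The part of macrophages, neutrophils, dendritic cells and mast cells in the synovial Irg1 level was not tested.

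**Figure D4:**
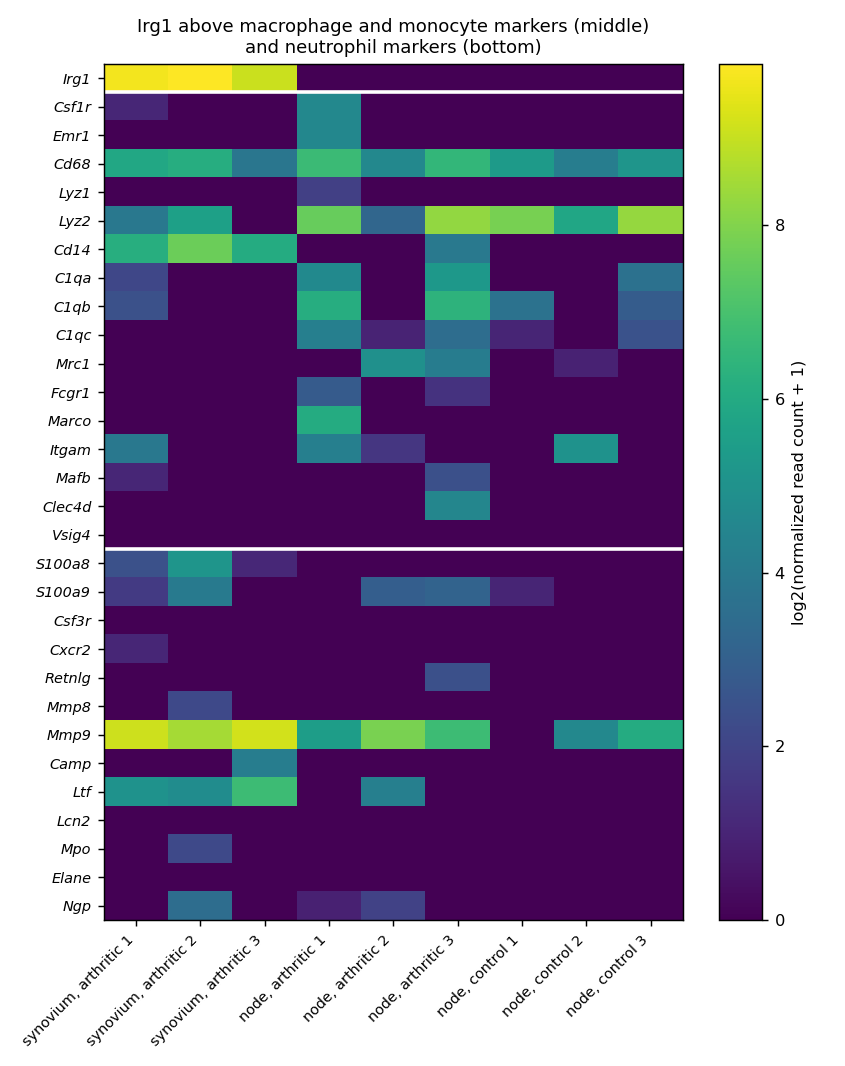
Level of Irg1 (top), 16 macrophage and monocyte markers (middle) and 13 neutrophil markers (bottom) in each of the 9 libraries, as log2(normalized read count + 1) on a colour scale that starts at 0. Irg1 is read in the 3 synovial libraries alone, while most macrophage markers are at or near 0 there and Mmp9 and Ltf are the brightest neutrophil markers.

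The genes whose pattern was most like that of Irg1 over the 9 libraries were listed by Pearson correlation of log2(normalized count + 1) among 8904 genes with a synovial mean of 50 or more. The top 8 were Map9 (r = 0.9998), Gad1, Slc25a3, Ndfip1, Ubl3, Fzd4, Adora2b and Odc1 (r = 0.996). Such values rest on a difference between synovium and nodes that the 9 points share and are a description only. Map9, a microtubule-associated protein, had 336, 383 and 189.9 normalized counts in synovium, and no read in the nodes, so it followed Irg1 also in its order within synovium. Slc25a3, the mitochondrial phosphate carrier, had a mean of 15740 ± 1124 in synovium, against 4517 ± 64.3 in arthritic nodes and 4535 ± 111 in control nodes (SD, n = 3 each). Odc1, ornithine decarboxylase, which starts polyamine synthesis, had a mean of 8704 ± 1109 in synovium, against 229.6 ± 33.3 in arthritic nodes and 202 ± 41.0 in control nodes. Of the 8 genes, Map9, Gad1, Fzd4 and Adora2b had, like Irg1, no read in any node library.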

How the data were processed

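RNA was sequenced from sorted Tregs, with libraries made by a directional kit per the labels' protocols. HISAT2, HTSeq, DESeq2 and the mm10 genome are named in the submitters' processing notes. Versions, annotation and strand setting are not given in the sources used here. Expression was deposited as a normalized signal, the reads of a gene over the size factor of its library. In each library 100% of nonzero values were whole multiples, within 0.01, of the value of 1 read, so reads could be recovered. The authors' deposited table gives mean signal, log2 fold change with its error, a Wald score, and p-values, raw and adjusted, per the file headers; a rerun of DESeq2 showed its direction to be synovium over arthritic node. In the authors' deposited table the log2 fold change was -1.90 for Idh2 and -0.45 for Cs.

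Groups were compared with limma (version 3.58.1, R 4.3.3; moderated by eBayes with a trend) on log2(normalized count + 1), with all 9 libraries in 1 fit. Testing covered 11357 genes whose mean reached 10 and was two-sided, with Benjamini-Hochberg adjustment over all of them, called at 0.05. A fold change compares mean log2(value + 1), which understates low genes. edgeR 4.0.16 and DESeq2 1.42.0 on recovered reads were alternatives, beside other pseudocounts, filters, scalings, variance models and fits without single libraries. limma called 3844 genes for synovium against arthritic nodes, 39 for arthritic against control nodes and 4551 for synovium against control nodes. In the same order edgeR called 3648, 37 and 4305, and DESeq2 called 4065, 173 and 4718. Poisson intervals, counting intervals of ratios and floors cover counting error only. The intervals of log2 differences come from the limma fit and so include the variation between libraries. The fit was tested on simulated data. Groups came from the titles. Synovial and arthritic node libraries with the same number come from the same mouse by title. Their deviations from the group means correlated at 0.024, 0.054 and 0.089. Though low, this was for each synovial library its best correlation with an arthritic node library. Arthritic and control node libraries of the same number, from separate animals, correlated at 0.0046, 0.067 and 0.070, the best match for replicates 2 and 3. For synovium and control nodes the values were -0.019, 0.033 and 0.052, the best match for replicate 3. Such correlations therefore cannot tell whether libraries share a mouse. The members and gene lists were chosen with earlier results of these data known. All 9 genes are named, as may be any gene of the lists (a few list genes are not reported here and are in no list count); the genes most like Irg1 are the top 8 by correlation, without predicted genes, pseudogenes and receptor segments. Positions are from GENCODE on GRCm38 and promoters from RefSeq.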

Additional observations from a re-analysis of the deposited data

How the results depend on the processing

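Against arthritic nodes, the count of called cycle genes was 5 of 17 and moved to 8, all lower, under quantile scaling; leaving out a replicate gave 5 to 6, and the replicate block on mouse number gave 5. Against control nodes it was 6 (2 higher and 4 lower), 8, all lower, under quantile scaling, 4 to 6 when a replicate was left out and 5 with the block; between the node groups it was 0 throughout. The block ended no call of the 8 enzymes. Among other genes given with a test above, it ended the call of Tfb1m against arthritic nodes (adjusted p = 0.090). Control mice share only a number with arthritic mice. There the block left Srxn1 at an adjusted p of 0.32 between the nodes and Dld at 0.060 and Mpc1 at 0.084 against control nodes. Calls of list genes not tested above also ended against control nodes: Prdx1 (0.094), Ireb2 (0.069), Esrra (0.11) and Tfam (0.071). The log2 level of Irg1 was 9.54, with 9.38 to 9.78 when a replicate was left out.

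Several log2 differences changed sign, most of them without a call. Under quantile scaling, synovium minus arthritic node was -0.051 for Idh3a, -0.22 for Ogdh, -0.31 for Mdh2, -0.092 for Sdhb and -0.12 for Ftl1, and synovium minus control node was -0.35 for Mdh2, -0.21 for Sucla2, -0.19 for Sdhb, -0.10 for Prdx1 and -0.15 for Ftl1 (Prdx1 and Ftl1 had been called, and both turned values of Mdh2 passed, at an adjusted p of 0.018 and 0.0081); the cause was not tested. Ogdh turned to -0.014 under TMM scaling and -0.0299 with edgeR against arthritic nodes, and to 0.0060 with library weights against control nodes. With library weights Sucla2 became -0.0131 and Clybl -0.011 against control nodes, with edgeR Clybl became -0.024, and with DESeq2 Sdhd became 0.0024 against arthritic nodes. With a replicate left out, synovium minus arthritic node ran from -0.066 to 0.18 for Ogdh, -0.16 to 0.078 for Fh1, -0.066 to 0.26 for Dlst, -0.071 to 0.029 for Sucla2, -0.055 to 0.057 for Sdhd and -0.36 to 0.059 for Got2. Synovium minus control node ran from -0.18 to 0.033 for Ogdh, -0.017 to 0.22 for Fh1, -0.011 to 0.099 for Sucla2, -0.26 to 0.035 for Sdhc, -0.41 to 0.0076 for Got2 and -0.20 to 0.23 for Clybl. Arthritic minus control node ran from -0.16 to 0.044 for Aco1, -0.072 to 0.15 for Idh2, -0.22 to 0.024 for Ogdh, -0.091 to 0.0028 for Sdhb, -0.032 to 0.24 for Sdhc and -0.13 to 0.021 for Got2.

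With 3 libraries per group, small differences could not be resolved: the 95% intervals of the 8 enzymes' log2 differences are given above where they bear on a reading. Genes under about 3 reads per library could not be told from 0.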
